A study of Mus musculus with 6 samples.

Results

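The Cd8a and Cd8b1 locus was examined in mSin3A chromatin immunoprecipitation sequencing (ChIP-seq) of mouse splenic CD8 T cells. Its members were all mSin3A islands, the stretches of enriched signal listed by the peak caller, that overlapped a window of 90 kb on chromosome 6 of the mouse build mm9, chr6:71255001-71345000. The window is defined by position alone, but the locus was chosen with earlier results of these data known. It held 22 of the 54058 islands in the 4 deposited lists. Cd8b1 lies at about 71272800 to 71288000 and Cd8a at about 71323400 to 71329200 on this build, as the window's definition gives them, so that distances from these points are approximate.

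Tcf1-/-Lef1-/- cells were set against WT cells. Both were T cells with high surface TCRbeta and CD8, sorted from spleen. In the Tcf1-/-Lef1-/- mice, Tcf1 and Lef1 were deleted by Cre recombinase under Cd4 control (CD4-Cre), which acts from the stage at which thymocytes first express Cd4. Each genotype had 1 ChIP library in condition 1 and 1 in condition 2. How the conditions differed is not stated in the labels, nor are the number and age of the mice. The conditions were therefore not treated as replicates, each group was 1 library, and no test between genotypes was made. Exchanging the genotypes within each condition gives 4 arrangements, so that an exact two-sided permutation test could not give a p below 0.5. The intervals below cover counting error only. The 2 input libraries were not analysed here. Peak lists hold no expression values, so the sorted cell type and the deletion could not be checked from them.

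Cd8a encodes the alpha chain and Cd8b1 the beta chain of CD8, the coreceptor with which cytotoxic T cells bind MHC class I. The alpha chain carries the cytoplasmic motif that binds the kinase Lck, and the beta chain reaches the surface only in a dimer with it. The genes are neighbours, are read in the same direction and share a set of Cd8 enhancers that act at different stages of T cell development. Tcf1 and Lef1 are HMG-box transcription factors that help to hold the CD8 T cell programme. mSin3A is the scaffold of a histone deacetylase complex, which is recruited by repressors and is also found at many expressed genes. In the RefSeq annotation the neighbour before Cd8b1 was the long noncoding RNA gene Gm38828 and the neighbour after Cd8a was Rmnd5a. No other annotated gene lay between Cd8b1 and Cd8a.

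The start of Cd8a was inside an island in all 4 libraries, so its promoter sequence is shown here. It is the RefSeq sequence on GRCm38.p6, chr6:71373177-71373476, plus strand, with 250 bases before and 50 bases after the annotated start, and its coordinates belong to another build than those of the islands. Capitals mark matches to CTTTG, the core of the motif that TCF and LEF factors bind.
Cd8a promoter: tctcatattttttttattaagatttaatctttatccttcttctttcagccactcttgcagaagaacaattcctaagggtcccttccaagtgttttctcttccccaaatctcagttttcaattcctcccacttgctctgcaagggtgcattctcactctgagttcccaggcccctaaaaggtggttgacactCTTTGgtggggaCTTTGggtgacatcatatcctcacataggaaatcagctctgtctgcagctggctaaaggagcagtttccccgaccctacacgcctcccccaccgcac
CTTTG occurred at 2 places, with first bases 59 and 47 bases before the start, and was not found on the opposite strand. CTTTG or its reverse complement was present in 53.9% of the 32851 promoters of the same length, so a match was common. The ETS core GGAAG was found 2 times, both on the opposite strand, and was present in 71.4% of promoters. The E-box CAGCTG, which reads the same on both strands, was found 1 time at the start site, against 16.3% of promoters. The RUNX core TGTGGT (16.8% of promoters) and the GATA core AGATAA (11.2%) did not occur in this window on either strand. None of these matches overlapped another, and a match is not evidence of binding.

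The 4 lists held between 1792952 and 1917097 reads in islands and between 11151 and 15954 islands. Their median island was 3.2 to 4.2 kb wide. The widest islands of the locus were far wider than this, and the narrowest were near it. The 7 islands of Tcf1-/-Lef1-/- cells in condition 1 were 2.4 to 25.2 kb wide, and the 5 of WT cells in condition 1 were 9.8 to 18.2 kb wide. In condition 2, the 5 islands of Tcf1-/-Lef1-/- cells were 5.0 to 23.4 kb wide and the 5 of WT cells 5.4 to 17.0 kb wide. Most of the stretch from before Cd8b1 to the 3′ part of Cd8a was thus listed in each library, broken by gaps of 0.8 to 8.0 kb.

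mSin3A islands covered over 50% of the window in every library. In condition 1 they covered 56.9% of the window in Tcf1-/-Lef1-/- cells and 74.2% in WT cells. In condition 2 they covered 61.1% in Tcf1-/-Lef1-/- cells and 60.4% in WT cells. Coverage was thus lower without Tcf1 and Lef1 in condition 1 and nearly level in condition 2. Islands covered 2.32% to 2.49% of all 29271 consecutive windows of 90 kb. In those windows that held an island at all, the median was 5.55% to 6.22%. Coverage as high as that of the locus was found in 29 windows in Tcf1-/-Lef1-/- condition 1, 3 in WT condition 1, 16 in Tcf1-/-Lef1-/- condition 2 and 32 in WT condition 2. A single window reached it in all 4 libraries. The consecutive windows start at fixed points, whereas the window of the locus was placed around its genes. Of 263354 windows that start every 10 kb, chosen after the data were seen, 23 reached it in all 4 libraries, and they lay at 10 separate places, 1 of them this locus.

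**Figure D1:**
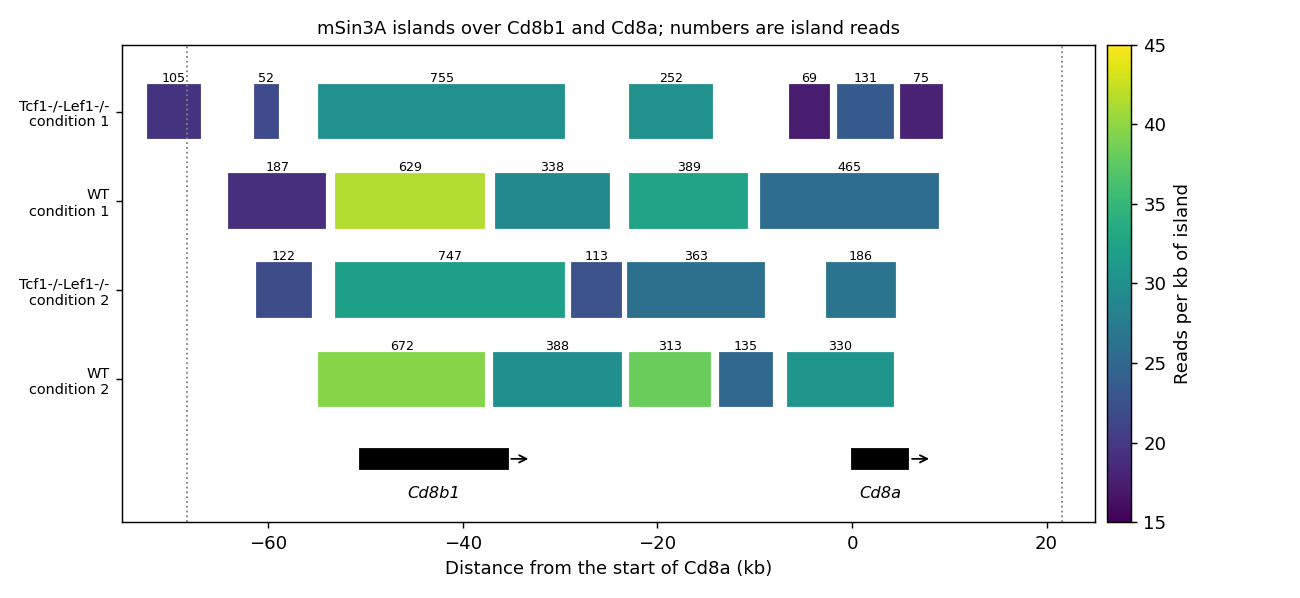
mSin3A islands in the 4 libraries (rows) by distance from the start of Cd8a in kb. Boxes are islands, coloured by reads per kb, with their read number above; black bars are the genes with their direction, and dotted lines are the edges of the window. In both Tcf1-/-Lef1-/- libraries 1 island runs across the whole of Cd8b1, while in both WT libraries a gap falls within its last part.

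At Cd8b1, the gene body lay inside a single broad island in Tcf1-/-Lef1-/- cells and was met by a pair of islands in WT cells. In Tcf1-/-Lef1-/- condition 1 the island at chr6:71268601-71293799 held 755 reads over 25.2 kb and ranked 28 by width among 15954 islands. In WT condition 1 the islands at chr6:71270401-71285599 and chr6:71286801-71298399 held 629 and 338 reads, with a gap of 1.2 kb between them. The gap lay 12.8 to 14.0 kb after the start of Cd8b1, in the last part of the gene. In Tcf1-/-Lef1-/- condition 2 the island at chr6:71270401-71293799 held 747 reads over 23.4 kb and ranked 69 by width among 13556 islands. In WT condition 2 the islands at chr6:71268601-71285599 and chr6:71286601-71299599 held 672 and 388 reads, with a gap of 1.0 kb at the same place. Both Tcf1-/-Lef1-/- libraries thus called the short stretch that both WT libraries left out.

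The ends of the islands over the start of Cd8b1 recurred within a genotype, and their starts did not. These islands started at 71268601 in Tcf1-/-Lef1-/- condition 1 and WT condition 2, and at 71270401 in Tcf1-/-Lef1-/- condition 2 and WT condition 1. Both Tcf1-/-Lef1-/- islands ended at 71293799, which was 21.0 kb after the start of Cd8b1. Both WT islands ended at 71285599, which was 12.8 kb after it. An end shared within 200 bp by both libraries of a genotype and by neither of the other was 1 of 7 ends of Tcf1-/-Lef1-/- condition 1 in the window, where the share over its whole list was 10.6%. For WT condition 1 it was 1 of 5 ends, against 6.37% of its list. Among island starts it was 1 of 6 for Tcf1-/-Lef1-/- condition 1 (10.6% of its list) and 1 of 5 for WT condition 1 (6.2% of its list). With so few edges these shares do not set the locus apart from the lists.

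The island over the start of Cd8b1 had a lower read density in Tcf1-/-Lef1-/- cells. The island over the start of Cd8b1 held 30.0 reads per kb (exact Poisson 95% interval 27.9 to 32.2) in Tcf1-/-Lef1-/- cells and 41.4 reads per kb (38.2 to 44.7) in WT cells in condition 1. In condition 2 it held 31.9 reads per kb (29.7 to 34.3) in Tcf1-/-Lef1-/- cells and 39.5 reads per kb (36.6 to 42.6) in WT cells. These differences were larger than counting error in both conditions. In WT cells this island had the highest density of the locus in both conditions. In condition 2 its interval overlapped that of chr6:71300601-71308799, which held 38.2 reads per kb (34.1 to 42.6). In the WT lists 14.1% and 17.7% of islands were as dense as the island over the start of Cd8b1. In the Tcf1-/-Lef1-/- lists 40.4% and 35.6% of islands were as dense. The difference in density moved with the island's extent: in Tcf1-/-Lef1-/- cells the same island also took in the stretch after the WT gap, which in WT cells formed an island of 29.1 and 29.8 reads per kb. Over all islands of the merged region around Cd8b1, described below, the genotypes lay closer. That density was 29.2 reads per kb in Tcf1-/-Lef1-/- cells and 31.5 in WT cells in condition 1. In condition 2 it was 28.9 in Tcf1-/-Lef1-/- cells and 35.3 in WT cells. The part of the extent in the density was not tested, since reads are given per island and not per base.

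The 5 segments of the window differed in how far the genotypes shared their coverage. Cd8b1 was covered over its whole length in both Tcf1-/-Lef1-/- libraries, against 92.1% and 93.4% in the WT libraries. The stretch of 35.4 kb between the genes was covered over 55.4% and 77.4% in the Tcf1-/-Lef1-/- libraries, against 89.8% in each WT library. Here both Tcf1-/-Lef1-/- values lay below both WT values. Cd8a itself was covered over 86.2% in Tcf1-/-Lef1-/- cells and over its whole length in WT cells in condition 1, and over 75.8% in Tcf1-/-Lef1-/- cells and 72.4% in WT cells in condition 2. The segment before Cd8b1 was covered over 44.9% in both Tcf1-/-Lef1-/- libraries, against 68.5% in WT condition 1 and 23.6% in WT condition 2. After Cd8a, islands covered 21.5% in Tcf1-/-Lef1-/- cells and 19.0% in WT cells in condition 1, and no island was listed there in condition 2. The last 12.4 kb of the window was uncalled in all 4 libraries.

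**Figure D2:**
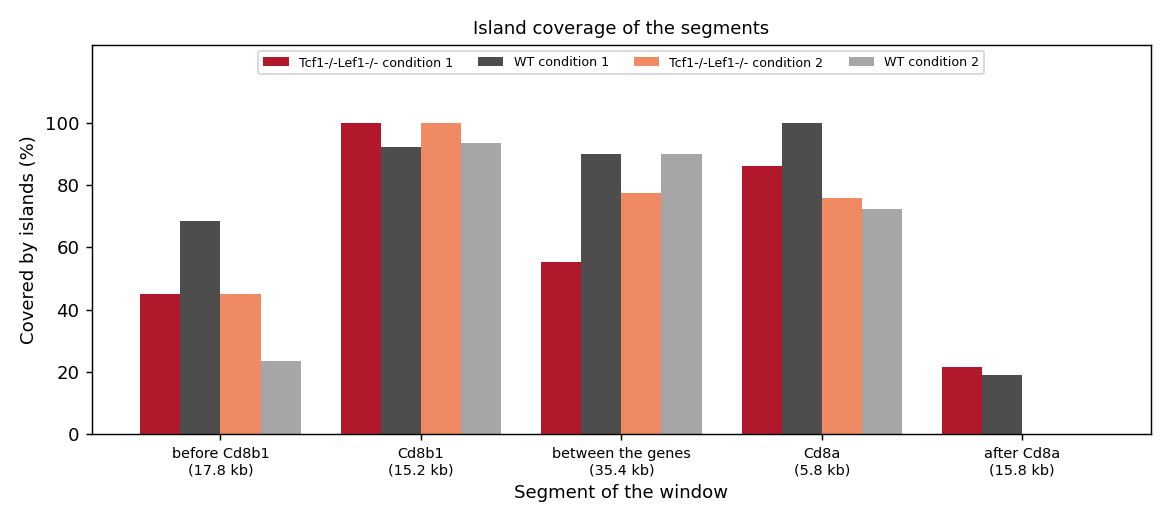
Share of each segment covered by islands, in percent, in the 4 libraries; segment lengths are given under the names. Between the genes both Tcf1-/-Lef1-/- bars (55.4% and 77.4%) lie below both WT bars (89.8% each), while over Cd8b1 both lie above.

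The gaps between the genes coincided only in part in the Tcf1-/-Lef1-/- libraries. In Tcf1-/-Lef1-/- condition 1, 6.8 kb was uncalled between 29.6 and 22.8 kb before the start of Cd8a, and 8.0 kb between 14.4 and 6.4 kb before it. In Tcf1-/-Lef1-/- condition 2, 6.4 kb was uncalled between 9.0 and 2.6 kb before the start, and 2 further gaps were 0.8 kb each. One of these opened at 71293799, as did the gap of 6.8 kb in Tcf1-/-Lef1-/- condition 1. The longest gap between the genes was 2.2 kb in WT condition 1 and 1.6 kb in WT condition 2. Long gaps before Cd8a were therefore listed in both Tcf1-/-Lef1-/- libraries and in neither WT library, and those nearest to Cd8a coincided between 9.0 and 6.4 kb before its start. The gap of 1.6 kb in WT condition 2 lay within this same stretch, between 8.2 and 6.6 kb before the start. Only 0.8 kb and 0.2 kb of the stretch, on either side of that gap, were called in both WT libraries. The narrowest islands wholly between the genes were 4.0 to 5.4 kb wide, against list medians of 3.2 to 4.2 kb. Tcf1-/-Lef1-/- condition 1 had 1 of 69 reads over 4.0 kb (chr6:71317001-71320999). Tcf1-/-Lef1-/- condition 2 had 1 of 113 reads over 5.0 kb (chr6:71294601-71299599), and WT condition 2 had 1 of 135 reads over 5.4 kb (chr6:71309801-71315199). Bases called in both WT libraries and in neither Tcf1-/-Lef1-/- library came to 1.8 kb in the window, or 2.44% of its called bases, against 3.9% over all chromosomes. Bases called in both Tcf1-/-Lef1-/- libraries and in neither WT library came to 1.0 kb, all of it in the WT gap within Cd8b1, or 1.36% against 6.28% over all chromosomes. Bases called by genotype in this way were thus no more frequent in the locus than in the genome.

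At Cd8a, the start was covered in every library, by narrower islands in Tcf1-/-Lef1-/- cells. In condition 1 the island over the start held 131 reads over 5.6 kb (chr6:71322001-71327599) in Tcf1-/-Lef1-/- cells and 465 reads over 18.2 kb (chr6:71314001-71332199) in WT cells. In Tcf1-/-Lef1-/- condition 1 it was flanked by islands of 69 and 75 reads, at chr6:71317001-71320999 and chr6:71328401-71332599. In condition 2 the island over the start held 186 reads over 7.0 kb (chr6:71320801-71327799) in Tcf1-/-Lef1-/- cells and 330 reads over 10.8 kb (chr6:71316801-71327599) in WT cells. Upstream of the start, the island reached 1.4 kb in Tcf1-/-Lef1-/- cells and 9.4 kb in WT cells in condition 1. It reached 2.6 kb in Tcf1-/-Lef1-/- cells and 6.6 kb in WT cells in condition 2. The island over the start of Cd8a was thus shorter on its upstream side in both Tcf1-/-Lef1-/- libraries. In Tcf1-/-Lef1-/- condition 1 the gap before it was only 1.0 kb, and the next island began 6.4 kb before the start. Its length and read number there thus depend on where the caller split the islands. In Tcf1-/-Lef1-/- condition 2 the gap before it was 6.4 kb.

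The 3′ end of Cd8a followed the condition and not the genotype. It was inside an island in both condition 1 libraries and in neither condition 2 library. In condition 2 the islands ended 4.4 kb after the start of Cd8a in Tcf1-/-Lef1-/- cells and 4.2 kb after it in WT cells. In condition 1 coverage went on to 9.2 kb after the start in Tcf1-/-Lef1-/- cells, after a gap of 0.8 kb, and to 8.8 kb after it in WT cells without a gap. In Tcf1-/-Lef1-/- cells this was an island of 75 reads, and 91.1% of its list was as dense. Bases called in both condition 1 and neither condition 2 library were 5.42% of the window's called bases, against 2.38% over all chromosomes. Those called in both condition 2 and neither condition 1 library were 3.52%, against 2.47%.

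A difference in density over the start of Cd8a was not detectable at this depth. It was 23.4 reads per kb (19.6 to 27.8) in Tcf1-/-Lef1-/- cells and 25.6 reads per kb (23.3 to 28.0) in WT cells in condition 1. In condition 2 it was 26.6 reads per kb (22.9 to 30.7) in Tcf1-/-Lef1-/- cells and 30.6 reads per kb (27.3 to 34.0) in WT cells, so that the intervals overlapped in both conditions. In the Tcf1-/-Lef1-/- lists 66.1% and 56.1% of islands were as dense, and in the WT lists 53.9% and 40.6%. By density the Cd8a island was therefore an ordinary one in each list.

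Between the genes, 1 island start was common to all 4 libraries. It lay at 71300601 in Tcf1-/-Lef1-/- condition 1 and in both WT libraries, and at 71300401 in Tcf1-/-Lef1-/- condition 2, which is 22.8 to 23.0 kb before the start of Cd8a. Over the whole lists, 2.8% of the starts of Tcf1-/-Lef1-/- condition 1 and 3.39% of those of WT condition 1 were shared by all 4 libraries within 200 bp. The island from this start held 252 reads at 30.0 reads per kb in Tcf1-/-Lef1-/- cells and 389 reads at 32.4 reads per kb in WT cells in condition 1. In condition 2 it held 363 reads at 25.9 reads per kb in Tcf1-/-Lef1-/- cells and 313 reads at 38.2 reads per kb in WT cells. The read number thus differed with opposite sign in condition 1 and condition 2. The density differed by less than counting error in condition 1 and by more in condition 2, with intervals of 23.3 to 28.7 in Tcf1-/-Lef1-/- cells and 34.1 to 42.6 in WT cells.

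Before Cd8b1, the islands were sparser and differed in extent. In condition 1, Tcf1-/-Lef1-/- cells had an island of 52 reads over 2.4 kb and WT cells 1 of 187 reads over 9.8 kb. In condition 2, Tcf1-/-Lef1-/- cells had an island of 122 reads over 5.6 kb, and in WT cells no separate island was listed there. These islands had 19.1 to 21.8 reads per kb, and at least 74.5% of the islands in each list were as dense. Tcf1-/-Lef1-/- condition 1 also held an island of 105 reads at the edge of the window, chr6:71251001-71256399, of which 25.9% lay inside.

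The 4 libraries called the same bases more often in the locus than over the genome as a whole. Of the 73.8 kb called in at least 1 library, 49.0% was called in all 4 libraries, against 16.4% over all chromosomes. Bases called in a single library made up 10.3% of the locus, against 50.3% over all chromosomes. Most islands of the locus were wider than the median of their list. The shares were not compared with those of equally wide regions. Pairs of libraries shared between 59.9% and 75.3% of the bases called in either. The libraries of the same genotype were not the most alike: the Tcf1-/-Lef1-/- pair shared 59.9%, the WT pair 71.2%, and pairs of different genotype 66.0% to 75.3%. Over all chromosomes the Tcf1-/-Lef1-/- pair was the most alike, with 44.1%, so the order of the pairs in the locus was not that of the genome.

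**Figure D3:**
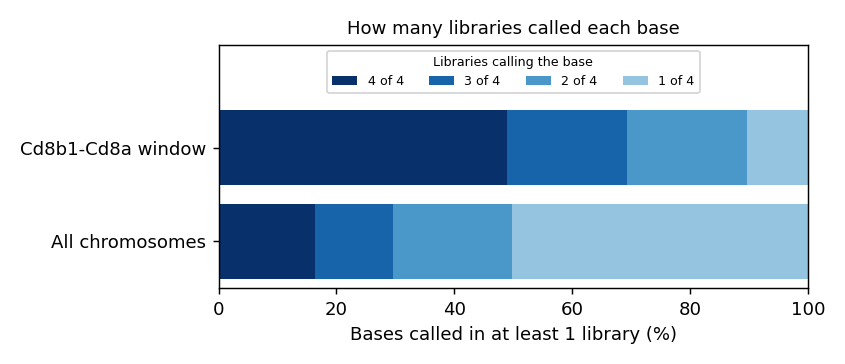
Bases called in at least 1 library, divided by how many of the 4 libraries called them, in percent, for the window around Cd8b1 and Cd8a (upper bar) and all chromosomes (lower bar). All 4 libraries called 49.0% of such bases in the window and 16.4% over all chromosomes.

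The stretches called in all 4 libraries and at least 1 kb long were 4 in number. The first, of 15.2 kb, ran from 2.4 kb before to 12.8 kb after the start of Cd8b1. The next, of 7.0 kb, lay across the 3′ end of Cd8b1 and beyond it, 14.0 to 21.0 kb after that start. The third, of 8.2 kb, lay between the genes, 22.8 to 14.6 kb before the start of Cd8a, and the last, of 5.6 kb, ran from 1.4 kb before to 4.2 kb after the start of Cd8a. Reads were shared out over these stretches as if evenly spread along each island. The values are therefore the densities of whole islands, and the part of island extent in them is not removed.

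On this basis the ratio of unscaled reads, Tcf1-/-Lef1-/- over WT, was 0.724 in condition 1 and 0.808 in condition 2 over the first stretch. Over the stretch at the 3′ end of Cd8b1 it was 1.03 and 1.07. Between the genes it was 0.925 and 0.679, and over the start of Cd8a it was 0.916 and 0.87. The ratio was thus below 1 in both conditions in 3 of the 4 stretches and slightly above 1 in the stretch at the 3′ end of Cd8b1. The densities of the islands behind these ratios differed by more than counting error in the first stretch in both conditions and between the genes in condition 2. In the other cases their intervals overlapped. In the first stretch and in that at the 3′ end of Cd8b1, the Tcf1-/-Lef1-/- values are the average of the same island. These stretches are therefore not separate measurements in Tcf1-/-Lef1-/- cells.

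When islands of all 4 libraries that share or touch a base were merged, the locus fell into 3 regions. A region around Cd8b1, chr6:71259401-71299599, and one around Cd8a, chr6:71300401-71332599, were called in all 4 libraries, as were 24.0% of the 23510 merged regions of the genome. The island at the edge of the window was called in Tcf1-/-Lef1-/- condition 1 alone, as were 14.7% of merged regions. No region of the locus was called in 1 genotype only in both conditions. Both main regions were among the longest and richest of those called in all 4 libraries. Between 0.993% and 1.77% of these held as many reads as the Cd8b1 region, and between 1.93% and 5.27% as many as the Cd8a region.

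The Cd8b1 region held 807 reads (exact Poisson 95% interval 752 to 865) in Tcf1-/-Lef1-/- cells and 1154 reads (1088 to 1223) in WT cells in condition 1. In condition 2 it held 982 reads (922 to 1045) in Tcf1-/-Lef1-/- cells and 1060 reads (997 to 1126) in WT cells. The genotypes were apart by more than counting error in condition 1 and overlapped within it in condition 2. Log2 ratios were centred on the median of all regions called in both libraries of a condition, a median of -0.09 for condition 1 and -0.10 for condition 2. The centred log2 ratio of the Cd8b1 region was -0.42 (exact Clopper-Pearson 95% interval -0.56 to -0.29) in condition 1 and -0.01 (-0.13 to 0.12) in condition 2.

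The Cd8a region held 527 reads (483 to 574) in Tcf1-/-Lef1-/- cells and 854 reads (798 to 913) in WT cells in condition 1. In condition 2 it held 549 reads (504 to 597) in Tcf1-/-Lef1-/- cells and 778 reads (724 to 835) in WT cells. Both Tcf1-/-Lef1-/- libraries lay below both WT libraries by more than counting error. The centred log2 ratio was -0.60 (-0.76 to -0.45) in condition 1 and -0.40 (-0.56 to -0.24) in condition 2, or 0.658 and 0.758 of the WT reads. Between the conditions, condition 2 over condition 1, it was -0.04 (-0.22 to 0.13) in Tcf1-/-Lef1-/- cells and -0.25 (-0.39 to -0.11) in WT cells, so each genotype ratio of the Cd8a region was larger in size than either ratio between conditions of 1 genotype. This did not hold for the Cd8b1 region, where the ratio between conditions was 0.18 in Tcf1-/-Lef1-/- cells and -0.24 in WT cells, both larger in size than the genotype ratio of -0.01 in condition 2.

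**Figure D4:**
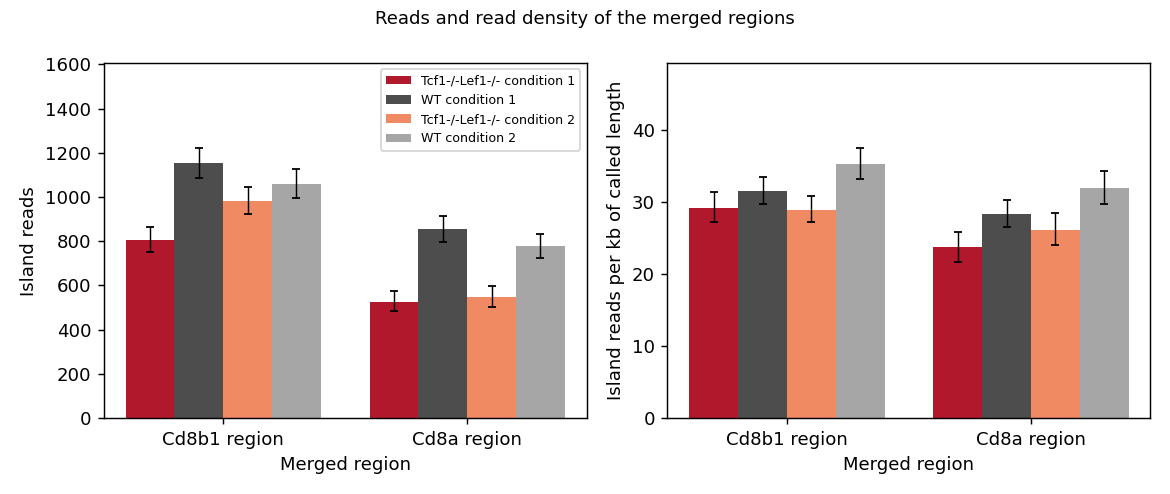
Island reads (left) and island reads per kb of called length (right) of the merged regions around Cd8b1 and Cd8a in the 4 libraries; bars are single libraries and error bars are exact Poisson 95% intervals for counting error only. In the Cd8a region both Tcf1-/-Lef1-/- libraries (527 and 549 reads) lie below both WT libraries (854 and 778 reads).

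Called length took part in these differences. The Cd8a region was called over 22.2 kb in Tcf1-/-Lef1-/- cells and 30.2 kb in WT cells in condition 1, and over 21.0 kb in Tcf1-/-Lef1-/- cells and 24.4 kb in WT cells in condition 2. Per kb of called length it held 23.7 reads in Tcf1-/-Lef1-/- cells and 28.3 in WT cells in condition 1, and 26.1 in Tcf1-/-Lef1-/- cells and 31.9 in WT cells in condition 2. The centred log2 ratios of density were -0.25 and -0.28, smaller in size than those of reads. The Cd8b1 region was called over 27.6 kb in Tcf1-/-Lef1-/- cells and 36.6 kb in WT cells in condition 1, but over 34.0 kb in Tcf1-/-Lef1-/- cells and 30.0 kb in WT cells in condition 2. Its centred log2 ratios of density were -0.11 and -0.28, both negative. A density ratio as low was found in 35.8% of regions in condition 1 and in 19.5% in condition 2, so neither value was rare.

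Neither region passed a 2-fold difference, which 0.39% of the 5637 regions called in all 4 libraries did with fewer reads in Tcf1-/-Lef1-/- cells in both conditions. By sign alone, both regions had fewer reads in Tcf1-/-Lef1-/- cells in both conditions after centring, as did 24.5% of these regions. Both had fewer reads per kb, as did 25.1%. For the reads of the Cd8b1 region in condition 2, the ratio of -0.01 (-0.13 to 0.12) was within counting error of no difference. A read ratio as low as that of the Cd8a region in both conditions was found in 2.64% of regions, and one as low as that of the Cd8b1 region in 7.89%. For density these shares were 4.97% and 7.38%, for the Cd8a and the Cd8b1 region in turn. Shares for both conditions jointly are smaller than those for each condition alone. In condition 1 and condition 2 alone, a read ratio as low as that of the Cd8a region was found in 7.93% and 16.6%. For the Cd8b1 region these were 13.8% and 47.5%. A density ratio as low as that of the Cd8a region was found in 22.1% and 19.7%. Across all these regions the centred log2 read ratio of the genotypes had a standard deviation of 0.50 in condition 1 and 0.52 in condition 2. That of condition 2 over condition 1 had 0.44 in Tcf1-/-Lef1-/- and 0.51 in WT cells. The Cd8a region lay about 1 standard deviation from the centre, and without replicates it cannot be said whether this is more than the spread between libraries of 1 group.

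**Figure D5:**
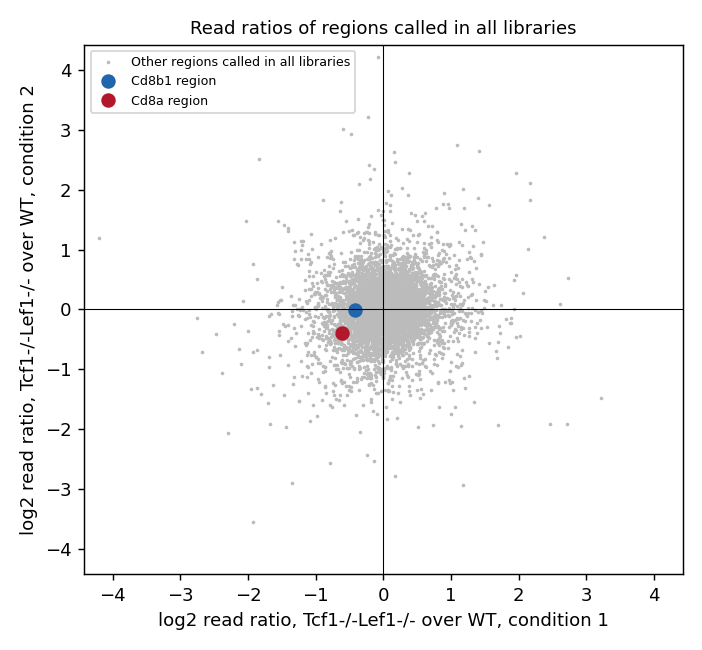
Centred log2 read ratio, Tcf1-/-Lef1-/- over WT, in condition 1 (horizontal axis) and condition 2 (vertical axis) for the 5637 regions called in all 4 libraries (grey points). The Cd8a region (red) lies at -0.60 and -0.40 and the Cd8b1 region (blue) at -0.42 and -0.01, and both overlap the main cloud of points.

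The balance between the Cd8b1 region and the Cd8a region can be read without scaling the libraries. The regions are wider than the genes, and the Cd8a region began 23.0 kb before the start of Cd8a. With reads shared out evenly along islands, Cd8a itself took 113 to 148 reads in the 4 libraries. Of the reads in both main regions, the Cd8a region held 39.5% (Wilson 95% interval 36.9 to 42.2) in Tcf1-/-Lef1-/- cells and 42.5% (40.4 to 44.7) in WT cells in condition 1. In condition 2 it held 35.9% (33.5 to 38.3) in Tcf1-/-Lef1-/- cells and 42.3% (40.1 to 44.6) in WT cells. The WT libraries differed from each other by less than counting error. The Tcf1-/-Lef1-/- share was lower in both conditions, with intervals that overlapped those of WT in condition 1 and did not in condition 2. These are shares of reads, which also carry the called length of each region. In condition 2 the centred log2 ratio of density was -0.28 in both regions, so per kb of called length the balance was alike in the genotypes. In condition 1 it was -0.25 in the Cd8a region and -0.11 in the Cd8b1 region.

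Over the whole window, the islands held 1439 reads (1366 to 1515) in Tcf1-/-Lef1-/- cells and 2008 reads (1921 to 2098) in WT cells in condition 1. In condition 2 they held 1531 reads (1455 to 1610) in Tcf1-/-Lef1-/- cells and 1838 reads (1755 to 1924) in WT cells. This was 0.0757% of all island reads in Tcf1-/-Lef1-/- cells and 0.108% in WT cells in condition 1, and 0.0799% in Tcf1-/-Lef1-/- cells and 0.103% in WT cells in condition 2. The centred log2 ratio was -0.39 (-0.49 to -0.29) in condition 1 and -0.16 (-0.26 to -0.06) in condition 2. That of condition 2 over condition 1 was -0.01 in Tcf1-/-Lef1-/- cells and -0.25 in WT cells, so the genotype ratio in condition 2 was smaller in size than the ratio between the WT libraries. Both Tcf1-/-Lef1-/- libraries thus held fewer mSin3A island reads over the locus than both WT libraries.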

How the data were processed

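The authors used FastQC, Bowtie2 2.2.5 and SICER 1.1 with mm9, per the submitters' processing notes, and made 1 island list per ChIP library. No source used here gives the caller's settings or its background. The 4 deposited lists have 4 columns and no header. The last was taken, from its values and the usual SICER layout, to be the ChIP read count of the island as made by the authors, not scaled for depth or width. Total depth is unknown. Starts were moved up by 1 and ends kept as deposited; widths are end minus start, and gaps count the end as part of the island. In every list starts fell on multiples of 200 bp and gaps were at least 800 bp.

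Coverage, reads, merged regions, edges (within 200 bp) and centred log2 ratios were computed with Python 3.11.15, numpy 2.4.6, pandas 2.3.3 and scipy 1.17.1 over the whole lists; functions were tested on simulated data. Reads of an island were shared out evenly along it where segments or stretches were compared. Every island in the window and the genes Cd8b1 and Cd8a are named. The window, the genes and the measures were chosen with earlier results of these data known. Annotation on GRCm38 served for gene order and the Cd8a promoter only. Alternatives were other window edges, island filters, joining and scaling. The promoter of Cd8b1 was not analysed here.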

Additional observations from a re-analysis of the deposited data

Results flagged for a closer look

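For 5 measures of called length and 1 of reads the sign of the genotype difference was not the same in condition 1 and condition 2. They are given as Tcf1-/-Lef1-/- minus WT in condition 1 and then in condition 2. For the covered length of the window the difference was -15.6 kb and 0.6 kb. Before Cd8b1 it was -4.2 kb and 3.8 kb, and over Cd8a itself -0.801 kb and 0.2 kb. For the called length of the Cd8b1 region it was -9.0 kb and 4.0 kb. For the island over the stretch between the genes that all libraries called, it was -137 and 50 reads, and -3.6 kb and 5.8 kb in width. The difference between conditions was not tested for any of them. Read numbers and read densities of the window and of both main regions went in the same direction in both conditions. For the reads of the Cd8b1 region the intervals overlapped in condition 2.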

How the results depend on the processing

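Of 45 values recomputed under other settings, 32 stayed close to the reported one and 13 moved, where close means within 1.5-fold for a count and within the 95% interval for a coverage or a log2 ratio. None of the 12 log2 ratios among them changed sign. The filter for islands of at least 1 kb could not remove any island of the locus, where the narrowest was 2.4 kb. Its values, all among those that stayed close, therefore do not show robustness. Widening the window by 10 kb at each edge lowered coverage to 51.6% and 50% in the Tcf1-/-Lef1-/- libraries, against 65.6% and 49.5% in the WT libraries. With the lists held to their upper 50% by reads, Tcf1-/-Lef1-/- condition 1 kept 4 islands, covering 45.1%. The log2 read ratio of the window was -0.51 and -0.36 in conditions 1 and 2 when scaled by total island reads, and -0.21 and -0.27 per kb of called length. Without scaling it was -0.26 in condition 2. Joining islands within 2 kb made 1 region called in all 4 libraries of the regions around Cd8b1 and Cd8a.

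Each group is 1 library, so no replicate was left out. The libraries can be paired by condition, but no paired test was made. With 2 pairs, the exact permutation test described above could not give a p below 0.5. A fit with condition as a term beside genotype, which leaves 1 residual degree of freedom, was not made. Reads outside islands are unknown, so an uncalled stretch is not shown to lack mSin3A.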

Other observations

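Apart from this locus, windows of 90 kb starting every 10 kb reached its coverage in all 4 libraries at 9 places. On mm9 these were chr1:182250001-182340000, chr2:172820001-172910000, chr8:14950001-15040000, chr11:52060001-52180000, chr12:109150001-109250000, chr13:51810001-51920000, chr17:35290001-35430000, chr19:4150001-4250000 and chr19:5380001-5470000. No gene was assigned to them, since no annotation of that build was used here. The share of windows that reached it was 0.00873%, against 0.00342% of consecutive windows.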
